A study of Mus musculus with 6 samples.

Results

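The cyclins, cyclin-dependent kinases (CDKs), CDK inhibitors, pocket proteins and E2F factors are the genes that carry a cell from G1 through S phase into mitosis. They were followed here in regulatory T (Treg) cells made in culture with or without sorafenib (Sora), a multikinase inhibitor used against hepatocellular carcinoma. The set holds 50 genes, chosen by symbol, and all 50 were found among the 22939 genes of the count table. Of the 50, 49 passed a filter on low counts that 13463 genes passed in all. Relative to control Treg (ctrl-Treg) cells, 26 of the 49 genes were lower in Sora-treated Treg (Sora-Treg) cells, 9 were higher, and 14 did not pass the test (edgeR quasi-likelihood test, Benjamini-Hochberg adjusted p under 0.05 over all 13463 genes). Among all tested genes, 29.9% were called lower and 29.7% higher, so a call in either direction was common in this comparison (59.6% of genes). In limma on log2(FPKM + 1), which follows library totals, 34 set genes were lower and 6 higher, so that 15% of the set's calls were higher (25.7% in edgeR), and over all genes 33.7% of calls were higher (49.8% in edgeR). The median log2 fold change of the set was -0.19, against -0.00 over all tested genes.

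The mice carried GFP knocked into Foxp3, with C57BL/6J as the background strain. Their naive CD4+ T cells were cultured on plate-bound anti-CD3 and anti-CD28 with TGF-β1 and with antibodies against IFN-γ and IL-4, and GFP+ cells were sorted for RNA sequencing. There were 3 libraries of ctrl-Treg cells, which had the same culture without Sora, and 3 of Sora-Treg cells. GFP marks Foxp3 expression, so the sort kept Foxp3+ cells and left out cells of the culture that had not become Treg cells. The labels give no animal, culture, age or batch for a library, so p-values measure only the spread between these 3 and 3 samples, which may be technical. Exact permutation of 3 against 3 libraries cannot go below p = 0.1, so single values were not tested that way.

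In a cycling cell, mitogen and antigen receptor signals raise D-type cyclins, which pair with Cdk4 and Cdk6 and phosphorylate the pocket proteins Rb1, Rbl1 and Rbl2. Pocket proteins otherwise hold E2F factors in check. Released E2F factors switch on cyclin E, cyclin A and the replication genes, and a later wave of transcription through the MuvB complex and Foxm1 brings up cyclin B, Cdk1 and the genes of mitosis. The Cip/Kip inhibitor p27 (Cdkn1b) acts mainly on Cdk2 complexes, and the INK4 inhibitors (Cdkn2a, Cdkn2b, Cdkn2c and Cdkn2d) act on Cdk4 and Cdk6. T cells that have seen antigen divide rapidly, and p27 is one of the proteins that keep resting T cells out of the cycle.

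Library totals ran from 30727686 to 37717324 counts. All 8 T cell and Treg markers were detected in every library, and their summed level ran from 4081 to 4128 CPM (counts scaled to library size) in control libraries and from 7132 to 7246 CPM under Sora. Il2ra (1934 ± 32.1 to 3795 ± 54.1 CPM, SD, n = 3) and Ctla4 (383 ± 12.4 to 1108 ± 28.4 CPM) made up most of that difference. Foxp3 (259 ± 8.99 to 272 ± 4.75 CPM), Cd4 (679 ± 2.08 to 709 ± 17.5 CPM) and Ikzf2 (147 ± 2.31 to 149 ± 8.11 CPM) had log2 fold changes of 0.07, 0.06 and 0.02, and Ikzf2 did not pass the test. The 7 myeloid markers summed to 93.5, 93 and 24.9 CPM without Sora and to 22.3, 42.9 and 20.8 CPM with it, and 6 of the 7 were more than 2-fold higher in each of ctrl-Treg libraries 1 and 2 than in library 3. With those 2 libraries left out, the median log2 fold change of the set was -0.20, against 0.01 over all tested genes. Only ctrl-Treg library 3 then stood for the controls. The 5 B cell markers summed to 9.71 to 10.7 CPM without Sora and 6.09 to 7.68 CPM with it, the 2 CD8 markers to 13.2 to 15.1 and 12.6 to 13.8 CPM, and no erythroid marker had more than 4 counts in a library. No marker of these 4 lists was at 0 in every library. Fewer cycling cells and less RNA per cycling cell cannot be told apart in bulk libraries.

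Promoter sequence is shown first, since set genes known to peak in different phases are read through different motifs. Sequences came from RefSeq (GRCm38.p6), in which 38 of the 50 genes had a window of 250 bases before to 50 bases after the gene start. On both strands, 3 motifs were searched, which were an E2F motif (TTTCCCGC, TTTCGCGC, TTTGCCGC or TTTGGCGC), the cell cycle genes homology region that MuvB reads (CHR, TTTGAA) and the CCAAT box of NF-Y, whose letters did not overlap one another in the stretches printed. An E2F motif stood in 9 of 38 set promoters (23.7%), against 4.67% of 10701 tested genes with a window. A CHR stood in 11 (28.9%, against 14.7%) and a CCAAT box in 23 (60.5%, against 42.9%). The 180 bases before the start are printed for 6 genes. Cdk1 is shown as a gene that held all the motifs, Cks1b and Cks2 because of these paralogs Cks1b alone passed the test, E2f8 and Cdc25a as genes that were lower, and Cdkn1b as one that was higher. E2f3 also held all the motifs in a single window, and E2f2 did so only across its 2 windows. Capitals mark the motifs on either strand.
Cdk1, chr10:69352913-69353092, minus strand: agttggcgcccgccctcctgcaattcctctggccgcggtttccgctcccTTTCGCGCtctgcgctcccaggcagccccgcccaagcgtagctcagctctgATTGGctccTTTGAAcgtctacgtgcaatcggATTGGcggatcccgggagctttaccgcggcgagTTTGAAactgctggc
Cks1b, chr3:89418292-89418471, minus strand: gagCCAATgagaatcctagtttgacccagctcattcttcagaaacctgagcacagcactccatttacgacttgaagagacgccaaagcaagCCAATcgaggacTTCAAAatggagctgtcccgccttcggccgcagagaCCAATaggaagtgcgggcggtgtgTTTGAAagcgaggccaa
Cks2, chr13:51645052-51645231, plus strand: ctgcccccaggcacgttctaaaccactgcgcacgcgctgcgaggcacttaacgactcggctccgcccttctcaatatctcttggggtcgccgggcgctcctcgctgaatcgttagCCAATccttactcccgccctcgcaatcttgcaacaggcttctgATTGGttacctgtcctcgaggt
E2f8, chr7:48881597-48881776, minus strand: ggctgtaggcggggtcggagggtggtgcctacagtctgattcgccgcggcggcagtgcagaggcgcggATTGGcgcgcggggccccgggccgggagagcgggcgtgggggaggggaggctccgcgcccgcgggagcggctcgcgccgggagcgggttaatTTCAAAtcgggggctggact
Cdc25a, chr9:109875399-109875578, plus strand: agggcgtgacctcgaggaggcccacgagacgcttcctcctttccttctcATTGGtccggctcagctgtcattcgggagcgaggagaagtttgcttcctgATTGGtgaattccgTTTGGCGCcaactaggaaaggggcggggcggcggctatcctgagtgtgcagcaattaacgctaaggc
Cdkn1b, chr6:134920221-134920400, plus strand: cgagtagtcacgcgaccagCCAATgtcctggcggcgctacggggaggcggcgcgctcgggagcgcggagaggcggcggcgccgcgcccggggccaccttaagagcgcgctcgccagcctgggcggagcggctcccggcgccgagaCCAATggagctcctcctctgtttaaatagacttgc
In Cdk1 the E2F motif began 131 bases before the start and CHR motifs began 71 and 15 bases before it. Cks1b held CHR motifs 77 and 17 bases before the start, whereas the Cks2 window held CCAAT boxes and no CHR. Other G2/M-periodic genes went both ways. Ccnb2, Ccnf and Cdk1 held a CHR and were lower. Ccnb1 and Cdc25b held CCAAT boxes and no CHR and were also lower, and Cdkn3 held a CHR and did not pass the test. Whether a CHR goes with the fold change was not tested. E2f8 held a CHR 20 bases before the start, Cdc25a an E2F motif 67 bases before it, and Cdkn1b CCAAT boxes alone. By the timing assigned to each gene, 5 of 10 G1/S-periodic set genes with a window held an E2F motif, as did 1 of 8 G2/M-periodic genes. A CHR was held by 5 of the 8 G2/M-periodic genes and by 3 of the 10 G1/S-periodic genes. All 8 G2/M-periodic genes held a CCAAT box, as did 7 of the 10 G1/S-periodic genes. Of the 19 genes called lower that had a window, 7 held an E2F motif (36.8%) and 8 a CHR (42.1%). Over tested genes with a window the shares were 4.67% and 14.7%. None of the 7 called higher held either, but 7 windows are too few to tell 0 from those shares. A motif match describes the letters of these windows and not binding in these cells.

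The D-type cyclins moved apart. Ccnd1 (cyclin D1) had 206, 213 and 146 counts without Sora and 8, 19 and 11 with Sora, which is 5.23, 5.85 and 4.57 CPM against 0.264, 0.596 and 0.309 CPM. The groups did not overlap, and the difference, 13.3-fold lower, was the largest in the set (log2 fold change -3.74 ± 0.26 SE, edgeR adjusted p = 2.33e-11). Ccnd3 (cyclin D3), the D cyclin that thymocytes depend on, stood at 324, 326 and 331 CPM and then at 517, 494 and 509.8 CPM. All 3 Sora-Treg libraries were above all 3 ctrl-Treg libraries (1.55-fold higher, log2 fold change 0.63 ± 0.03 SE, edgeR adjusted p = 2.73e-15). Ccnd2 (cyclin D2) was 1565 ± 14.3 and 1653 ± 66.6 CPM (SD, n = 3), with overlapping libraries. Its log2 fold change of 0.08 passed the test (edgeR adjusted p = 0.0116), but was -0.04 when scaled by library totals alone and lost the call without Sora-Treg library 3 (edgeR adjusted p = 0.0735).

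Per length, in FPKM (counts per gene length and library total), Ccnd1 was a small part of cyclin D RNA in either group. Ccnd2 made up 59% ± 0.219 and Ccnd3 40.5% ± 0.271 of summed cyclin D FPKM in ctrl-Treg cells, and 49.8% ± 1.49 and 50.2% ± 1.5 in Sora-Treg cells (SD, n = 3). Ccnd1 went from 0.431% to 0.0257%. The ratio of Ccnd3 to Ccnd2 FPKM was 0.686, 0.679 and 0.694 without Sora and 1.08, 0.959 and 0.992 with it, given as a description with no test. Cyclin D FPKM in sum was 334 ± 1.79 and 387 ± 4.75. Of the partner kinases, Cdk4 was 168, 163 and 162 CPM and then 144, 137 and 142 CPM (log2 fold change -0.22, edgeR adjusted p = 3.93e-06). Cdk6 was 378, 385 and 384 CPM and then 423, 441 and 439 CPM (log2 fold change 0.18, edgeR adjusted p = 3.07e-06). Cdk6 lost its call in limma on log2(FPKM + 1) (log2 difference 0.07, adjusted p = 0.0665). Cdk4 remained the larger of the pair, at 78.5% ± 0.481 and 73.4% ± 0.881 of their summed FPKM. On the opposite strand, Tspan31 overlaps Cdk4 with 49% of its count, LTO1 overlaps Ccnd1 with 324% of its count and a log2 fold change of 0.07, and Bysl overlaps Ccnd3 with 10.1%. Whether counting used the strand is not given in the sources used here.

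**Figure D1:**
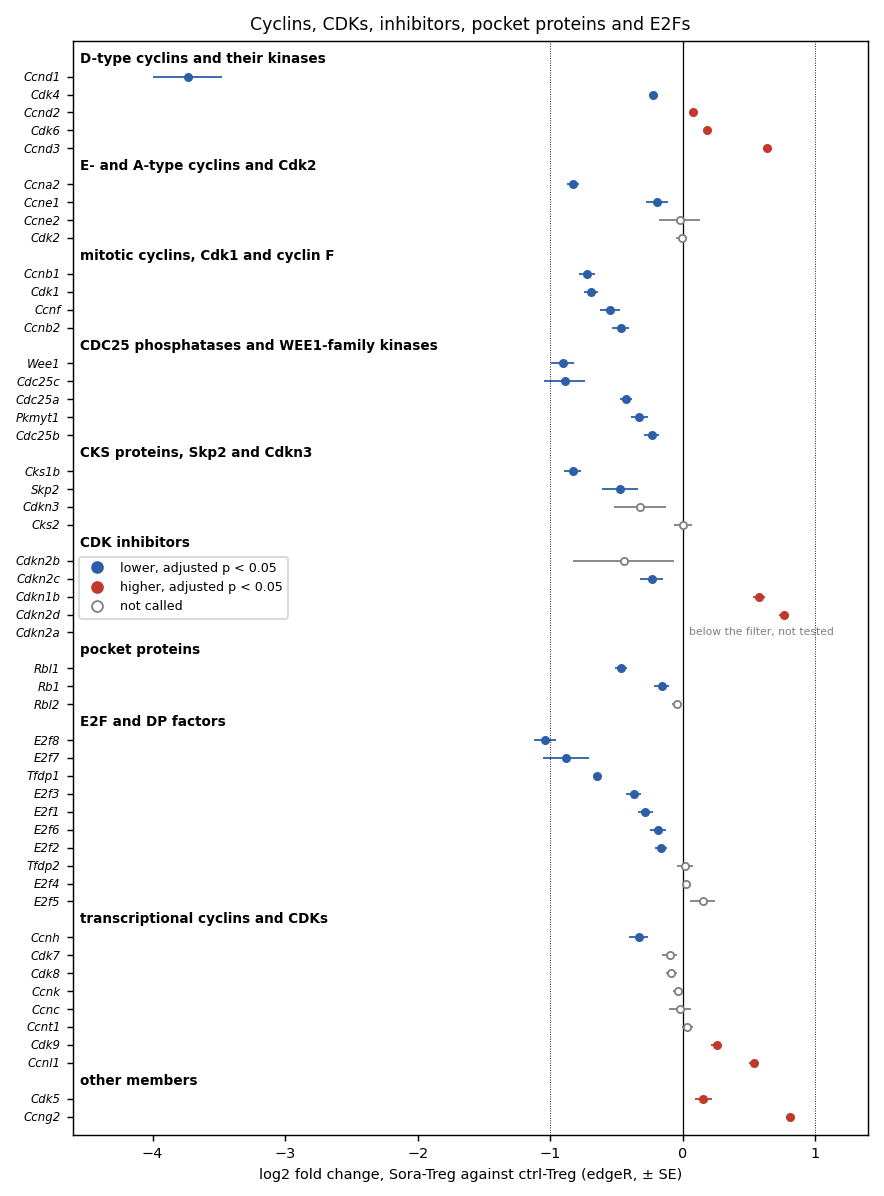
Log2 fold change (x axis, edgeR, Sora-Treg against ctrl-Treg cells, n = 3 each) of each gene, grouped by role, with bars for the SE, filled points for adjusted p under 0.05 and dotted lines at 2-fold. Ccnd1 lies far to the left at -3.74, the mitotic genes and the CDC25 and WEE1 genes are all left of 0, and Ccng2, Cdkn2d, Ccnd3, Cdkn1b and Ccnl1 lie farthest to the right.

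Of the 4 tested CDK inhibitors of the set, 2 rose, 1 fell and 1 did not pass the test. Among all tested genes, 29.7% were called higher and 29.9% lower. Cdkn2d (p19INK4d) went from 61.5, 62.9 and 60.6 CPM to 106, 103 and 104 CPM, with no overlap (1.69-fold higher, log2 fold change 0.76 ± 0.04 SE, edgeR adjusted p = 4.88e-14). Cdkn1b (p27) went from 86.3, 87.8 and 85.5 CPM to 119.6, 141 and 126 CPM (1.49-fold higher, log2 fold change 0.57 ± 0.05 SE, edgeR adjusted p = 3e-10). Both sat above every ctrl-Treg library in every Sora-Treg library. Cdkn2c (p18INK4c) was lower, at 13.3 ± 0.899 and 11.3 ± 0.663 CPM (SD, n = 3, log2 fold change -0.24, edgeR adjusted p = 0.0271). That call was lost without ctrl-Treg library 2 (adjusted p = 0.141), Sora-Treg library 1 (0.0733) or Sora-Treg library 2 (0.081).

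Cdkn2a and Cdkn2b, neighbors on the chromosome, had few counts. Cdkn2b had 26, 32 and 28 counts and then 12, 19 and 27, and its log2 fold change of -0.45 had a 95% interval of -1.23 to 0.34. Cdkn2a had 27, 16 and 6 counts and then 6, 2 and 2, fell below the filter and was not tested. It was the set gene that, like the myeloid markers, stood more than 2-fold higher in each of ctrl-Treg libraries 1 and 2 than in library 3. Summed over the 5 inhibitors, FPKM was 88 ± 1.61 without Sora and 125 ± 3.42 with it (SD, n = 3). Cdkn2d made up 49.5%, 49.3% and 49.3% of that sum in the control libraries and 56.6%, 52.3% and 54.9% under Sora, and Cdkn1b 42.5% ± 0.259 and 41.2% ± 2.32. The FPKM ratio of Cdk4 to Cdkn2d was 2.77 ± 0.0749 and 1.4 ± 0.0233 (SD, n = 3). That of Cdk2 to Cdkn1b was 0.603 ± 0.0222 and 0.404 ± 0.0282.

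Of the 3 pocket proteins, 2 were lower and 1 did not pass the test, where 29.9% of all tested genes were lower. Rbl1 (p107), itself an E2F target, was 70.6, 68.1 and 71 CPM and then 49.9, 53.4 and 48.8 CPM, without overlap (log2 fold change -0.46 ± 0.04 SE, edgeR adjusted p = 5.72e-09). Rb1, the retinoblastoma protein, had 111, 119 and 111 CPM and then 90.4, 114 and 100.5 CPM, and these values overlapped. It was called lower (-0.16 ± 0.06 SE on the log2 scale, edgeR adjusted p = 0.0156), and no longer passed without ctrl-Treg library 2 (0.112), Sora-Treg library 1 (0.146) or Sora-Treg library 3 (0.0561). Rbl2 (p130), which is abundant in resting cells, had a log2 fold change of -0.04 with a 95% interval of -0.12 to 0.03. By FPKM, Rbl1 went from 21.4% ± 0.524 to 17.5% ± 0.726 of the pocket proteins.

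Of 10 E2F and DP genes, 7 were lower, none was higher and 3 did not pass the test, with a median log2 fold change of -0.24. Over all tested genes, 29.9% were lower and 29.7% higher. The atypical repressors E2f7 and E2f8, which are made in S phase and close the E2F program, showed the largest differences. E2f8 was 25.6, 23.2 and 26.8 CPM and then 13, 12.6 and 11.2 CPM, 2.05-fold lower with no overlap (log2 fold change -1.04 ± 0.08 SE, edgeR adjusted p = 1.73e-10). E2f7 was 6.96, 8.82 and 6.26 CPM and then 3.46, 3.07 and 5.34 CPM (log2 fold change -0.88 ± 0.17 SE, edgeR adjusted p = 0.000133). The lowest ctrl-Treg library lay above the highest Sora-Treg library for both. Ccnd1 and E2f8 were the 2 set genes called lower beyond 2-fold, against 4.97% of all tested genes. None was called higher beyond 2-fold, against 6.3%.

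The dimer partner Tfdp1 (DP1) fell with a narrow spread, from 230.1, 227 and 230.2 CPM to 143, 149 and 146 CPM (log2 fold change -0.65 ± 0.03 SE, edgeR adjusted p = 1.68e-14), while its paralog Tfdp2 had a log2 fold change of 0.02 (95% interval -0.10 to 0.14). Among the activators, E2f3 had a log2 fold change of -0.37, E2f1 of -0.28 and E2f2 of -0.16, and all passed the test. E2f2 did not pass without ctrl-Treg library 1 (edgeR adjusted p = 0.0764). The repressor E2f6 was lower by a log2 fold change of -0.19 (edgeR adjusted p = 0.0117) and lost the call without ctrl-Treg library 1 (0.0841) or Sora-Treg library 3 (0.0613). E2f4 and E2f5, which act mainly with Rbl1 and Rbl2 in resting cells, did not pass (log2 fold changes 0.03 and 0.15, 95% intervals -0.05 to 0.10 and -0.05 to 0.35). E2f4 was also the most abundant E2F per length, at 55.1% ± 0.781 of summed E2F FPKM without Sora and 60.7% ± 0.545 with it, while E2f8 went from 6.22% ± 0.433 to 3.28% ± 0.257.

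**Figure D2:**
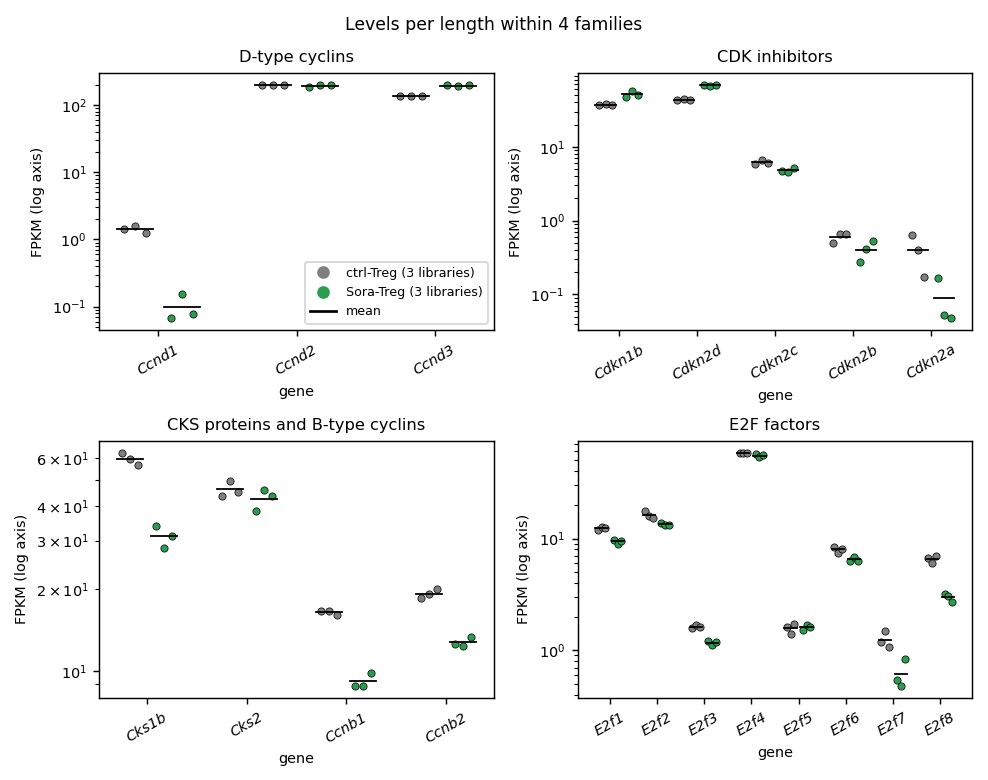
FPKM (y axis, log scale) of each gene of 4 families in the 3 ctrl-Treg (gray) and 3 Sora-Treg (green) libraries, with a bar at the mean. Ccnd1 drops far below the other D-type cyclins, Cdkn1b and Cdkn2d lie above control, Cks1b falls while Cks2 overlaps, and E2f4 is the highest E2F in both groups.

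Of the E- and A-type cyclins and Cdk2, 2 of 4 genes were lower, against 29.9% of all tested genes. Ccna2 (cyclin A2), which drives S phase and entry into mitosis, was 79.7, 81 and 85.1 CPM and then 46.5, 47.8 and 44.2 CPM, with no overlap (1.77-fold lower, log2 fold change -0.83 ± 0.04 SE, edgeR adjusted p = 2.23e-13). Exosc9 overlaps Ccna2 on the opposite strand with 55.3% of its count and a log2 fold change of -0.62. Ccne1 (cyclin E1) was 17.6, 18.1 and 16.2 CPM and then 14.1, 15 and 16.3 CPM. These libraries overlapped and the call was marginal (log2 fold change -0.19 ± 0.08 SE, edgeR adjusted p = 0.0447), and it was lost when any 1 of ctrl-Treg libraries 1 and 2 or Sora-Treg libraries 1 and 2 was left out (0.0842 to 0.174). Ccne2 and their partner kinase Cdk2 did not pass the test, with log2 fold changes of -0.03 (95% interval -0.34 to 0.29) and -0.01 (-0.10 to 0.08). Ints8 overlaps Ccne2 on the opposite strand with 739.6% of its count and a log2 fold change of -0.00. Cdk2 was 56.2, 57.2 and 59.3 CPM and then 57.1, 58.5 and 56 CPM. The FPKM ratio of Ccna2 to Cdk2 was 1.12 ± 0.00868 and 0.635 ± 0.0128 (SD, n = 3).

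All 4 mitotic genes were lower, against 29.9% of all tested genes, with a median log2 fold change of -0.62. Ccnb1 (cyclin B1) was 36.9, 37.1 and 35.7 CPM and then 21.3, 21.4 and 23.7 CPM (1.65-fold lower, log2 fold change -0.72 ± 0.06 SE, edgeR adjusted p = 7.01e-10). Its kinase Cdk1 was 49.7, 51.7 and 47.1 CPM and then 29.8, 29.3 and 32.7 CPM (1.62-fold lower, log2 fold change -0.69 ± 0.06 SE, edgeR adjusted p = 2.39e-10). In both, every Sora-Treg library was below every ctrl-Treg library. Ccnb2 (cyclin B2) and Ccnf (cyclin F, the substrate receptor of an SCF ubiquitin ligase) had log2 fold changes of -0.47 and -0.55. A processed copy of Ccnb1, Ccnb1-ps, had 4 to 21 counts a library.

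The 3 CDC25 phosphatases, which switch CDKs on, and the kinases Wee1 and Pkmyt1, which switch Cdk1 off, were lower as well (5 of 5, median log2 fold change -0.43). The share called lower over all tested genes was 29.9%. Wee1 was 19.4, 18.6 and 20.4 CPM and then 11.6, 9.69 and 9.89 CPM (1.87-fold lower, log2 fold change -0.90 ± 0.09 SE, edgeR adjusted p = 5.42e-09). Cdc25c was 6.81, 6.59 and 7.01 CPM and then 2.83, 4.55 and 3.6 CPM (1.86-fold lower, log2 fold change -0.89 ± 0.15 SE, edgeR adjusted p = 2.69e-05). In neither gene did the groups overlap. Cdc25a (-0.43), Pkmyt1 (-0.33) and Cdc25b (-0.24) had smaller log2 fold changes, and all 3 passed the test.

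The CKS paralogs, small CDK-binding proteins with closely related sequences, gave unlike values. Cks1b, which also serves SCF-Skp2 in the degradation of p27, was 45.6, 43.5 and 41.4 CPM and then 26.6, 22.3 and 24.6 CPM (1.78-fold lower, log2 fold change -0.83 ± 0.06 SE, edgeR adjusted p = 1.03e-10). Cks2 was 29.1, 33.2 and 30.2 CPM and then 27.8, 33.2 and 31.5 CPM, with overlap and a log2 fold change of 0.00 (95% interval -0.14 to 0.14). The FPKM ratio of Cks1b to Cks2 went from 1.44, 1.2 and 1.25 to 0.877, 0.615 and 0.716, a description with no test. Skp2, the SCF receptor for p27, was 7.01, 7.36 and 8.02 CPM and then 6.13, 5.74 and 4.27 CPM, without overlap (log2 fold change -0.48 ± 0.14 SE, edgeR adjusted p = 0.00428). Lmbrd2 overlaps Skp2 on the opposite strand with 471% of its count and a log2 fold change of 0.17. The CDK phosphatase Cdkn3 did not pass (log2 fold change -0.32, 95% interval -0.73 to 0.09).

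**Figure D3:**
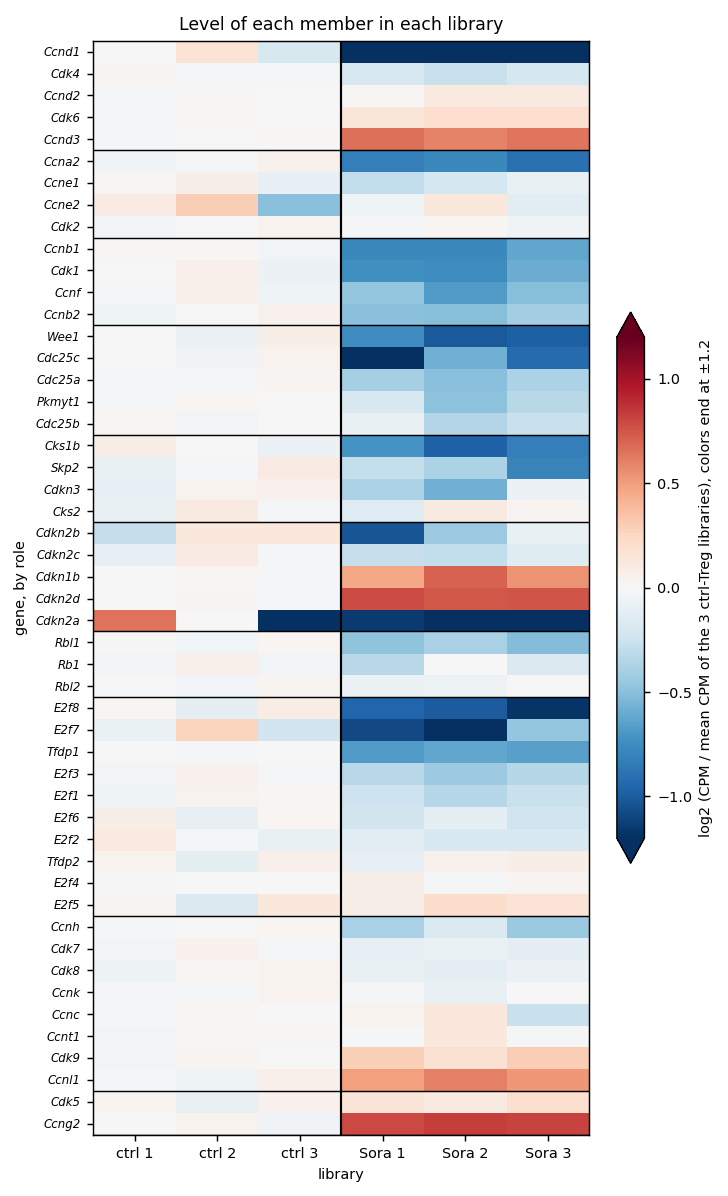
Level of each gene (rows, by role) in each library (columns) as log2 of CPM over the mean of the 3 ctrl-Treg libraries, blue for lower and red for higher, with colors ending at ±1.2. The mitotic, CDC25 and WEE1 blocks are blue in all 3 Sora-Treg libraries, while Ccnd3, Cdkn1b, Cdkn2d, Ccnl1 and Ccng2 are red in all 3.

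The cyclins and CDKs of transcription mostly did not pass the test (5 of 8), with a median log2 fold change of -0.03. Ccnl1 (cyclin L1), which works in splicing with Cdk11, was 164, 161 and 174 CPM and then 234, 253 and 238 CPM (1.45-fold higher, log2 fold change 0.54 ± 0.04 SE, edgeR adjusted p = 8.86e-12). Cdk9, the kinase of P-TEFb, had a log2 fold change of 0.25 (edgeR adjusted p = 5.29e-06), whereas its partner Ccnt1 had one of 0.03 (95% interval -0.06 to 0.12). Ccnh (cyclin H), of the CDK-activating kinase, was 27, 27.3 and 27.7 CPM and then 20.9, 24.2 and 20.0 CPM (log2 fold change -0.33 ± 0.07 SE, edgeR adjusted p = 0.000358). Rasa1 overlaps Ccnh on the opposite strand with 393% of its count and a log2 fold change of 0.04. Ccnh's partner Cdk7, the Mediator pair Ccnc and Cdk8, and Ccnk had log2 fold changes between -0.10 and -0.02 and did not pass. Tstd3 overlaps Ccnc on the opposite strand with 45.3% of its count and a log2 fold change of 0.28.

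Ccng2 (cyclin G2), an atypical cyclin linked to cell cycle exit and a known FoxO target, was 101, 103 and 97.5 CPM and then 174, 179 and 176 CPM. The groups were far apart, and its 1.76-fold difference was the largest rise in the set (log2 fold change 0.81 ± 0.03 SE, edgeR adjusted p = 2.04e-15). Its paralog Ccng1, a p53 target outside the set, moved the other way, from 514 ± 8.12 to 318 ± 16.3 CPM (SD, n = 3, log2 fold change -0.69 ± 0.03 SE, edgeR adjusted p = 1.08e-14). The FPKM ratio of Ccng2 to Ccng1 was 0.273 ± 0.0102 and 0.776 ± 0.0321. Cdk5, an atypical CDK best known in neurons, was 23.7, 21.8 and 24.1 CPM and then 25.9, 24.9 and 26.7 CPM. It was called higher (0.16 ± 0.07 SE on the log2 scale, edgeR adjusted p = 0.0475), and the call was lost under 11 of 16 alternatives, among them the fits without ctrl-Treg library 1 (0.0595) or 2 (0.183) and without Sora-Treg library 1 (0.0805) or 3 (0.149).

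The genes were also sorted by an assigned timing, with the set chosen when earlier results of these data were known. Timing was not measured in these data. Of 11 G1/S-periodic genes 9 were lower (median log2 fold change -0.28), and of 11 G2/M-periodic genes 9 were lower (median -0.55). None was higher in either group. Among all tested genes, 29.9% were lower and 29.7% higher. The 4 periodic genes that did not pass were Ccne2 and Cdk2, and Cks2 and Cdkn3. Of 27 tested genes not listed as periodic, 9 were higher and 8 lower (median -0.02), so all of the higher calls of the set were in this group. Cdkn2d, Ccng2, E2f3 and Wee1 were placed in it, and the split of calls depends on such assignments. All Sora-Treg libraries lay below all ctrl-Treg libraries in 26 set genes and above them in 8, against 32% and 31.8% of all tested genes.

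Genes taken from general knowledge as targets of E2F, MuvB and Foxm1 were counted as well. These lists were chosen with earlier results of these data known. Calls over all tested genes were 29.9% lower and 29.7% higher. Of 30 E2F target genes of S phase, 29 were lower and none higher, with a median log2 fold change of -0.70. Cdca7, a chromatin factor, went from 77.1 ± 1.47 to 29.7 ± 1.23 CPM (SD, n = 3, log2 fold change -1.38 ± 0.05 SE, edgeR adjusted p = 3.83e-17). Thymidylate synthase Tyms and the replication factor Mcm10 had log2 fold changes of -1.16 and -1.12, and Slbp was the gene of the list that did not pass (-0.03). Of 29 G2/M targets of MuvB and Foxm1, 28 were lower and none higher (median -0.68). The spindle checkpoint gene Mad2l1 (-0.96) and the mitotic kinesins Kif11 (-0.94) and Kif20a (-0.91) had the largest log2 fold changes, and Pttg1 did not pass (0.06). Of the 5 MuvB core subunits, 2 were lower (Lin9, log2 fold change -0.46, and Rbbp4, -0.14) and 3 did not pass.

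**Figure D4:**
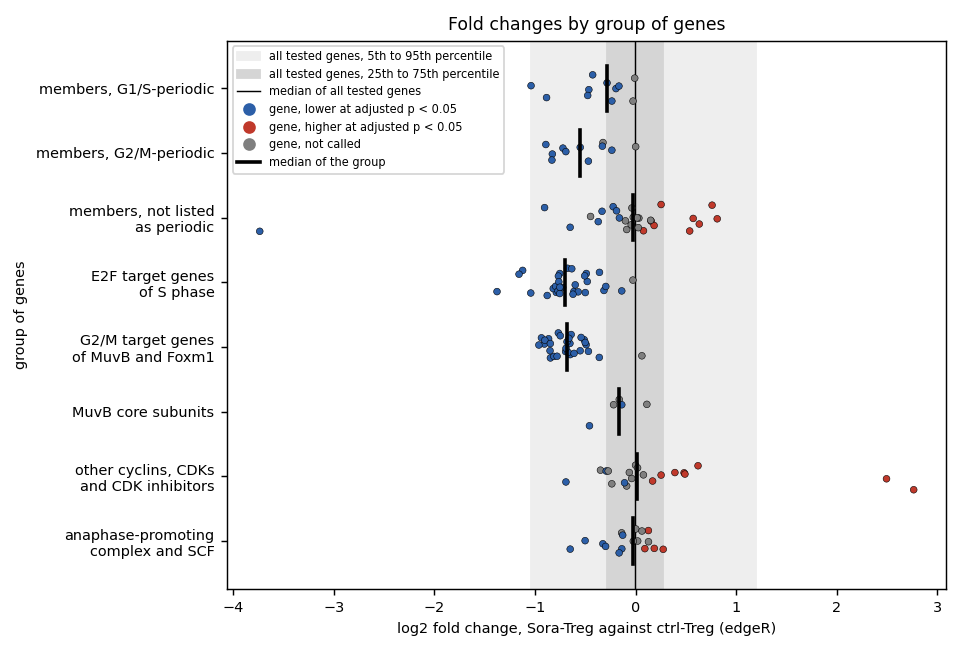
Log2 fold change (x axis, edgeR, Sora-Treg against ctrl-Treg cells) of each tested gene by group, with a thick bar at the group's median and shading for the 25th to 75th and 5th to 95th percentiles of all tested genes. The E2F and G2/M targets center near -0.70 and -0.68, and the genes of the set not listed as periodic spread to both sides of 0.

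Other genes of the same families moved in both directions. Of 20 tested other cyclins, CDKs and inhibitors, 8 were higher (40%) and 3 lower (15%), with a median of 0.01. Over all tested genes, 29.7% were higher and 29.9% lower. Cables1, which links CDKs to kinases, had 13, 16 and 12 counts and then 65, 122 and 67 counts (log2 fold change 2.77 ± 0.34 SE, edgeR adjusted p = 3.13e-07). Ccno (cyclin O) had 4, 8 and 9 counts and then 28, 47 and 35 (log2 fold change 2.50 ± 0.45 SE, edgeR adjusted p = 4.71e-05), so both rose from low levels. Cdkn1a (p21), named after its values were seen because it is the other main Cip/Kip inhibitor, went from 415 ± 9.14 to 339 ± 7.98 CPM (SD, n = 3, log2 fold change -0.29 ± 0.03 SE, edgeR adjusted p = 5.55e-09), opposite to Cdkn1b. Its FPKM of 212 ± 4.03 and 160.0 ± 3.94 was above that of Cdkn1b, at 37.4 ± 0.471 and 51.4 ± 4.33. Of 17 tested genes of the anaphase-promoting complex and SCF, regulators included, 7 were lower (41.2%) and 4 higher (23.5%), with a median of -0.02. The shares over all tested genes were 29.9% and 29.7%. The complex's inhibitor Fbxo5 (Emi1) had a log2 fold change of -0.65, and its subunits Cdc23 and Anapc5 had ones of -0.50 and -0.32.

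Between genes, per length, the highest levels of the set in ctrl-Treg cells were those of Ccnd2 (197 FPKM), Ccnd3 (135), Cdk4 (120.4), Tfdp1 (62.1) and Cks1b (59.8). In Sora-Treg cells they were Ccnd3 (194 FPKM), Ccnd2 (193), Cdk4 (95.3), Cdkn2d (68.1) and Ccng2 (67.9). Ccnd3 and Ccnd2 did not differ beyond their spread in Sora-Treg cells (194 ± 4.72 and 193 ± 7.43 FPKM, SD, n = 3), and neither did Cdkn2d and Ccng2 (68.1 ± 0.88 and 67.9 ± 0.841). Tfdp1 and Cks1b were at 36.5 ± 0.627 and 31.1 ± 2.78 FPKM in Sora-Treg cells.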

How the data were processed

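RNA sequencing was done on 3 ctrl-Treg and 3 Sora-Treg libraries. The deposited values are raw read counts per gene and FPKM values that the authors made from them, which were each a count divided by gene length and library total to within a relative difference of 1.64e-06, so FPKM is no separate measurement. The submitters' processing notes name fastp, HISAT2, HTSeq and GRCm39, whereas the study's methods name Bowtie2 and GRCm38. Strand setting and annotation release were not given in the sources used here.

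Counts were filtered with filterByExpr, scaled by TMM and tested with edgeR 4.0.16 (quasi-likelihood, R 4.3.3) over 13463 genes, with Benjamini-Hochberg adjustment and a threshold of 0.05. CPM values are TMM-scaled, and the SE of a log2 fold change is its size over the square root of F. FPKM served for levels between genes. limma 3.58.1 on log2(FPKM + 1), DESeq2 1.42.0, other scalings and filters, a replicate block and left-out libraries were alternatives. The code was tested on simulated data. Genes named with full values were the 2 with the largest log2 fold change in each role and those beyond 2-fold, and in each other list the 3 largest called. Values of Ccnd2, Cdk4, Cdk6, Cdk2, Cks2, Cdkn2a, Cdkn2b, Cdkn2c and Tfdp1 by library or group were added outside that rule, after their values were seen, to show paralogs and partners side by side. Members and lists were chosen with earlier results of these data known. Overlapping genes came from GENCODE M21 (GRCm38). Same-numbered libraries did not deviate together (r of -0.0438, 0.0591 and 0.0299), so numbers were not taken to pair samples. Counting error alone allows up to 0.0762 to 0.09886 TMM-scaled CPM (3 counts) in a library where a gene is at 0.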

Additional observations from a re-analysis of the deposited data

How the results depend on the processing

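Of the 35 called genes of the set, 27 kept their direction and call under all 16 alternatives, and 7 of the 14 uncalled genes were never called. The lower calls numbered 21 to 34 and the higher calls 6 to 9. With library totals alone as the scale, the median over all tested genes was -0.12 (log2) and that of the set -0.31, with 32 genes lower and 7 higher, so that 17.9% of the set's calls were higher against 25.7% as reported. Over all tested genes that share went from 49.8% to 33.8% under the same scaling, and the set's median differed from theirs by -0.19 (log2) in both. The set's median was -0.27 in limma on log2(FPKM + 1) and -0.32 with a pseudocount of 0.1, which also follow library totals. The 8 called genes that lost a call or turned were Ccnd2, Ccne1, Cdk5, Cdk6, Cdkn2c, E2f2, E2f6 and Rb1. Among the uncalled genes, Cdk2, Ccnk and Rbl2 were called lower by library totals and in both limma fits. So were Cdk7 and Cdk8, which were also called lower by upper quartile scaling, and Cdkn3 was called lower in both limma fits. By library totals, a further call of lower fell on a gene whose sign turned under that scaling, among Ccnt1, E2f4, Tfdp2 and Cks2. Calls on the E2F targets stayed at 28 to 30 and on the G2/M targets at 28.

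The replicate block gave 26 lower and 9 higher set genes, as without it, and the samples share only a number. Sign changes under the block were Ccne2 at 0.00196 and Cks2 at -0.00127, both near 0. Genes whose log2 fold change turned by scaling were Ccnd2 (-0.0364 by library totals, -0.0369 and -0.0371 on FPKM), Ccnt1 (-0.00478 by upper quartile, -0.0822 by totals, -0.0741 and -0.0824 on FPKM), E2f4 (-0.0103, -0.0878, -0.0867 and -0.0881), Tfdp2 (-0.0216, -0.0991, -0.0827 and -0.0985) and Cks2 (-0.0368, -0.114, -0.114 and -0.117, and -0.013 with no filter). Without both ctrl-Treg libraries 1 and 2, Ccne2 was 0.48 and Tfdp2 -0.0439. With 1 library left out, the values of the uncalled genes that turned ran as follows: Ccnc from -0.106 to 0.0922, Ccne2 from -0.214 to 0.145, Ccnt1 from -0.0112 to 0.0587, Cdk2 from -0.0224 to 0.0116, Tfdp2 from -0.0347 to 0.0703 and Cks2 from -0.0515 to 0.0727. The cause was not tested. Low counts limit Ccnd1, Cdkn2a, Cdkn2b and Cdkn3.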
